A study of Homo sapiens with 6 samples.

Results

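The 9 genes described here make cytosolic acetyl-CoA, turn it into fatty acids or regulate that route: FASN, ACACA, ACACB, ACLY, ACSS2, ME1, SLC25A1, THRSP and MLXIPL. They were taken by name, as genes of FASN and acetyl-CoA supply, from 62656 genes in the tables. Their RNA was sequenced in OVCAR5, a human ovarian cancer cell line, in 2 groups of 3 libraries. The first group had received 100 nM NTX301, a DNA hypomethylating agent, and the second its solvent dimethyl sulfoxide (DMSO), each for 3 days. Both groups were grown in the same serum-containing medium, and the labels name no engineered allele. Whether replicates were separate cultures is not stated, so the p-values cover the spread among these libraries, which may be technical.

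Fatty acids are built in the cytosol from acetyl-CoA, which cannot leave mitochondria as such. Citrate is exported by the carrier SLC25A1 and split by ACLY to give acetyl-CoA, and ACSS2 makes it from acetate. Acetyl-CoA carboxylase converts it to malonyl-CoA, FASN joins these units into palmitate at the cost of NADPH, and malic enzyme (ME1) is a source of that NADPH. Tumour cells, ovarian carcinoma among them, often run this route at a high rate where most normal tissues take up fatty acids from blood.

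With NTX301, 8 of the 9 genes were expressed enough to be tested, and all 8 fell while 0 rose. Of all 19029 genes tested, 35.1% fell and 35.4% rose (edgeR quasi-likelihood test on counts, Benjamini-Hochberg adjusted p under 0.05), and the median log2 fold change was -0.79 over the 8 genes and 0.00 over all. FASN, ACACA, ACSS2 and SLC25A1 fell by 2-fold or more, as did 8.55% of all genes tested, and ACLY moved least. THRSP was at or below 2 counts in every library. The count of 8 was 7 when counts were scaled by library totals alone and 6 on log2(TPM + 1) by limma, where TPM is a transcript level corrected for gene length and library total. These scalings move the median of all genes by 0.21 and 0.17, so changes below are relative to the typical gene. With them the split of all calls was 8793 up and 4732 down and 8652 up and 4318 down, against 6744 up and 6677 down here.

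The libraries held 23194160 to 23842859 estimated counts with NTX301 and 22131175 to 25743732 with DMSO. On the second principal component, with 6.3% of the variance, DMSO replicate 3 stood apart from the other 5 libraries, and without it the same 8 genes fell, by log2 values of -2.32 for FASN to -0.26 for ACLY. The epithelial markers EPCAM, KRT8, KRT18, KRT19, CDH1 and CLDN4 were all expressed and summed to 1974 to 2087 CPM (counts scaled by library size) with NTX301 and 3986 to 4274 CPM with DMSO; 5 fell and 1 rose. Of 6 ovarian carcinoma markers, PAX8, MSLN and MUC16 were tested and MUC16 fell, WT1 and ESR1 were below 0.3 CPM in both group means and SOX17 had no count (summed 14.5 to 16.3 and 15.5 to 19.5 CPM). Adipocyte markers summed to 6.41 to 10.5 CPM with NTX301 and 47.7 to 54.5 CPM with DMSO, nearly all of it FABP4, with ADIPOQ and LEP at or near 0. Hepatocyte markers summed to 70.5 to 72.2 and 54.6 to 58.6 CPM, nearly all of it SERPINA1 and FGB, with TTR at 0 and ALB near 0. Leukocyte markers summed to 18.9 to 19.6 and 13.3 to 14.3 CPM, nearly all of it CD14, endothelial markers to 5.93 to 6.40 and 4.79 to 5.39 CPM, and fibroblast markers to 8.94 to 10.2 and 2.25 to 3.13 CPM. PDGFRB carried the fibroblast difference (8.38 and 1.08 CPM), while LUM fell and THY1 and DCN were near 0. The part of these shifts in the results below was not tested. In bulk RNA, fewer cells that express a gene and less RNA per cell cannot be told apart.

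**Figure D1:**
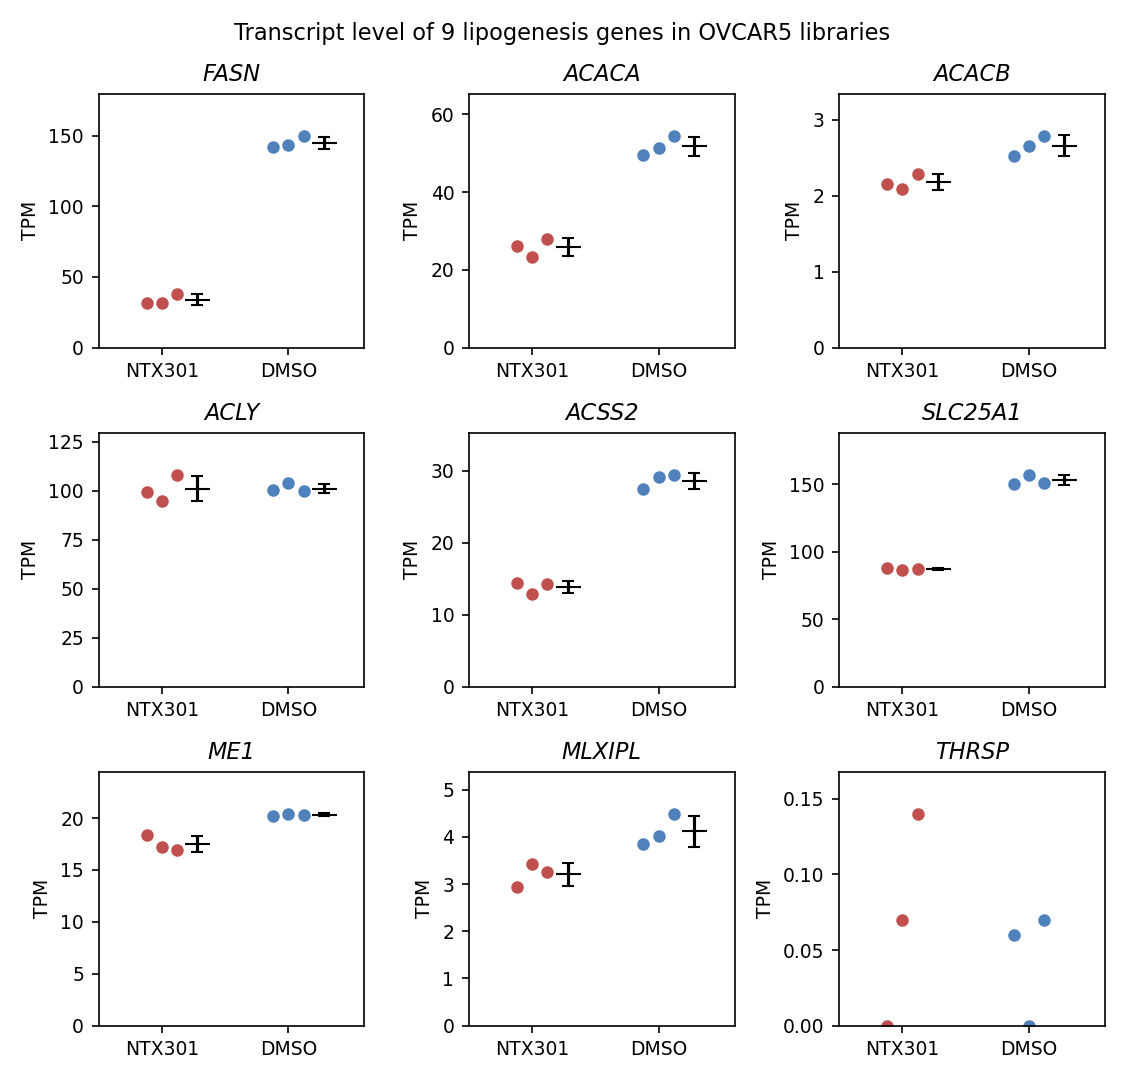
Level of each gene in TPM in the 3 NTX301 and 3 DMSO libraries (points), with mean and SD in black except for THRSP; each panel has its own axis from 0. The groups are apart in FASN, ACACA, ACACB, ACSS2, SLC25A1, ME1 and MLXIPL, and overlap in ACLY and THRSP.

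Supply of cytosolic acetyl-CoA differed between its enzymes: by TMM-scaled counts, the acetate enzyme ACSS2 stood at 42% of its DMSO level, the citrate carrier at 49.5% and citrate lyase at 85.6%. SLC25A1, the citrate carrier of the inner mitochondrial membrane (ENSG00000100075.10, chromosome 22, 19175575 to 19178830 in GRCh38), had 88.3, 86.7 and 87.5 TPM in NTX301 libraries, against 150, 157 and 151 TPM in DMSO libraries. The groups were far apart, and its counts fell by 1.01 ± 0.04 on the log2 scale (estimate ± standard error, 2.02-fold lower, edgeR adjusted p = 1.2e-09). That value lies at the 2-fold mark: it was -0.81 when counts were scaled by library totals and -0.79 on log2(TPM + 1).

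ACSS2, which makes acetyl-CoA from acetate (ENSG00000131069.20, chromosome 20, 34872146 to 34927962), had 14.4, 12.9 and 14.3 TPM in NTX301 libraries, against 27.4, 29.1 and 29.4 TPM in DMSO libraries. It fell by 1.25 ± 0.05 on the log2 scale (2.38-fold lower, edgeR adjusted p = 1.4e-09). ACSS2 shares 715 bases with GGT7 on the other strand, and reads of that stretch may not have been separated.

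ACLY, the lyase that splits exported citrate (ENSG00000131473.17, chromosome 17, 41866908 to 41930542), had 99.5, 94.9 and 108 TPM in NTX301 libraries, against 100.2, 104 and 100 TPM in DMSO libraries. These TPM values overlap, with the highest and the lowest library both from NTX301. Its TMM-scaled counts were 213, 208 and 222 CPM with NTX301 and 256, 254 and 241 CPM with DMSO, which do not overlap, as in 36.5% of all genes tested in the lower direction. The log2 fold change of counts was -0.22 ± 0.04 (edgeR adjusted p = 4.0e-04) with TMM, -0.02 ± 0.04 with library totals (adjusted p = 0.72) and -0.01 ± 0.05 on log2(TPM + 1) by limma (adjusted p = 0.84). Set against the median of all genes, the last 2 values are -0.22 and -0.18, so the fall of ACLY is one relative to the typical gene.

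The 250 bases before the transcription start of SLC25A1 and of ACLY are shown to set a supply gene that fell 2.02-fold beside the one that moved least, with every GC box (GGGCGG) and NF-Y box (CCAAT) on either strand in capitals. Sequences are from RefSeq on GRCh38.p14; matches may overlap within a run of capitals.
SLC25A1, chr22:19178737-19178986, minus strand: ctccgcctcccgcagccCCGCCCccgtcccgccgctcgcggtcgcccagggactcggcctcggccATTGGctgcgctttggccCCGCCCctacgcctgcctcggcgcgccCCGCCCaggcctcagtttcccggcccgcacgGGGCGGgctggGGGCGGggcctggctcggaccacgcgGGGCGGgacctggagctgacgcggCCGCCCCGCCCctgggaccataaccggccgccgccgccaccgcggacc
ACLY, first start, chr17:41919023-41919272, minus strand: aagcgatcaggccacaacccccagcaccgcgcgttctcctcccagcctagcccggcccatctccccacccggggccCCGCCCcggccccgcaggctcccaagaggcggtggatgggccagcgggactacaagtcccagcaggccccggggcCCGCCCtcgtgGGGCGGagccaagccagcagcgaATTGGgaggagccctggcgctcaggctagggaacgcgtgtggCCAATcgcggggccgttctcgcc
The SLC25A1 window held 8 GC boxes, 1 NF-Y box and 37 CG dinucleotides, and the ACLY window 3, 2 and 23. The window of the second ACLY start, not shown, held 4, 2 and 26. Both ACLY windows lie within the gene span given above, and that of SLC25A1 overlaps its gene in part. The median of all 35116 windows was 11 CG dinucleotides. Fewer CG than in SLC25A1 were found in 96.0% of windows, and fewer than in the ACLY windows in 74.2% and 80.4%.

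Of the 9 genes, 8 matched the promoter table, all but FASN, with 13 starts between them. A GC box was present in 10 of these 13 windows, against 42.6% of all windows, and an NF-Y box in 8, against 32.0%. These windows are not independent: the 2 of ACLY overlap and share boxes, and ACACA, ACACB and ACSS2 also have more than 1 each. The sterol element TCACNCCAC was in 0 of the 13 windows and 0.883% of all windows, and the E-box CACGTG in 0 of the 13 and 6.34% of all. The ACSS2 windows held 3 and 18 CG, those of ACACB 4 and 21, that of ME1 25 and that of MLXIPL 16. A match is only a string of letters, and methylation of these windows was not analysed here.

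By TMM-scaled counts, RNA of both acetyl-CoA carboxylase isozymes fell, that of ACACA to 40.8% and that of ACACB to 71.1% of the DMSO level. The falls were smaller in mean TPM, where the ratio of NTX301 to DMSO was 0.498 for ACACA and 0.819 for ACACB. ACACA, the cytosolic acetyl-CoA carboxylase that makes malonyl-CoA for fatty acid synthesis (ENSG00000278540.5, chromosome 17, 37084988 to 37406818), had 26.2, 23.4 and 27.9 TPM in NTX301 libraries, against 49.7, 51.3 and 54.5 TPM in DMSO libraries. Its counts fell by 1.29 ± 0.05 on the log2 scale (2.45-fold lower, edgeR adjusted p = 6.4e-10). ACACB, the isozyme at the mitochondrial outer membrane whose malonyl-CoA restrains fatty acid entry into mitochondria (ENSG00000076555.16, chromosome 12, 109116595 to 109268226), had 2.15, 2.09 and 2.29 TPM with NTX301 and 2.52, 2.66 and 2.79 TPM with DMSO. It fell by 0.49 ± 0.07 (1.41-fold lower, edgeR adjusted p = 6.7e-05), and missed the threshold on log2(TPM + 1) (-0.20 ± 0.09, limma adjusted p = 0.072). ACACB made up 7.58%, 8.22% and 7.59% of the summed carboxylase TPM with NTX301 and 4.83%, 4.93% and 4.87% with DMSO, so ACACA was the main transcript in every library.

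The tables also give a length for each gene. For ACACA, the deposited mean length, which RSEM weights by the estimated abundance of the 5 transcripts in the tables, was 8635, 8740 and 8780 bases with NTX301, against 9280, 9258 and 9025 bases with DMSO. The ACACA groups did not overlap, as in 16.1% of 12309 tested genes with more than 1 transcript in the shorter direction, and the NTX301 mean minus the DMSO mean was -469 bases (exact permutation test, two-sided p = 0.10, the smallest that 3 against 3 allows). In 13.5% of these genes the mean length shortened by at least as large a percentage as the -5.11% of ACACA. Of its 5 transcripts, 4 are in GENCODE 29 under the same version, with lengths of 9624, 9554, 7912 and 569 bases. Gene tables do not show which of them changed. A shorter mean length raises TPM for the same count, and the log2 fold change of ACACA was -0.98 on log2(TPM + 1) and -1.09 in counts scaled by library totals. Of the other genes with more than 1 transcript, SLC25A1 moved by -3 bases without overlap, and FASN, ACACB, ACLY and MLXIPL overlapped between groups.

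**Figure D2:**
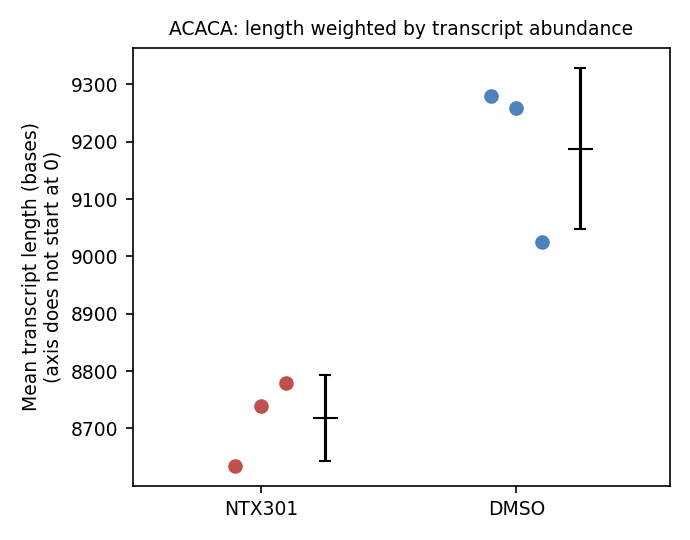
Mean length of ACACA transcripts in bases, weighted by transcript abundance, in each library (points) with mean and SD in black; the axis does not start at 0. The 3 NTX301 libraries lie between 8635 and 8780 bases and the 3 DMSO libraries between 9025 and 9280.

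ACACA has 3 starts in RefSeq, and their 250-base windows are shown beside the difference in mean transcript length, with GC boxes and NF-Y boxes in capitals as above.
ACACA, start 1, chr17:37406837-37407086, minus strand: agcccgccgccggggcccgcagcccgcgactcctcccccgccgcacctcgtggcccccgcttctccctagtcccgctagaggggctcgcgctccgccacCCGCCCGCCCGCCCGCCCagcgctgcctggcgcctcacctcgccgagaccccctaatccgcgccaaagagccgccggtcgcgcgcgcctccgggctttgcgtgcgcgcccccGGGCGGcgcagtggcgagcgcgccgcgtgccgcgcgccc
ACACA, start 2, chr17:37359097-37359346, minus strand: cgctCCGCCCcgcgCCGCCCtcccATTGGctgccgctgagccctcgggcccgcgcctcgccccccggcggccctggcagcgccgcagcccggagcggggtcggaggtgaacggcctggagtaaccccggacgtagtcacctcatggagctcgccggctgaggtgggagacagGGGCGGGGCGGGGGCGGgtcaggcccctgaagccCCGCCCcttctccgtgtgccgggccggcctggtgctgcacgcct
ACACA, start 3, chr17:37299768-37300017, minus strand: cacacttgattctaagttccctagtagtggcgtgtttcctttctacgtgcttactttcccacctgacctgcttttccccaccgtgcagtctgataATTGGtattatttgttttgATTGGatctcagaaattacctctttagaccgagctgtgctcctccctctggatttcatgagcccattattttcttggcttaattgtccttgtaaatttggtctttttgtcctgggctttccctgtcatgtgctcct
The first window is the densest in CG of the 13, with 45 CG dinucleotides and 5 GC boxes, and 99.4% of all windows had fewer CG. The second had 30 CG, 6 GC boxes and 1 NF-Y box. The third, within the gene, had 4 CG, 2 NF-Y boxes and 0 GC boxes. Which start the reads came from was not tested, since the tables sum over transcripts.

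FASN had the largest fall of the 8 genes. FASN, the multi-domain synthase that builds palmitate (ENSG00000169710.9, chromosome 17, 82078333 to 82098332), had 31.8, 31.7 and 38.2 TPM in NTX301 libraries, against 142, 143 and 149.8 TPM in DMSO libraries. Every NTX301 library was far below every DMSO library, and the count-based log2 fold change was -2.31 ± 0.06 (edgeR adjusted p = 4.4e-11). Its 95% interval was -2.42 to -2.20 by a normal approximation, which is narrow for so few libraries. Only 0.478% of tested genes had a lower log2 fold change, which places FASN 92nd of 19029. By mean TPM over all genes of the tables, FASN ranked 4737 with NTX301 and 963 with DMSO. Over 15 alternatives the log2 fold change was -2.38 to -2.07, past the threshold in each.

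Relative to other genes of the route, FASN was lower with NTX301 in every library. The ratio of FASN to ACACA in TPM was 1.21, 1.36 and 1.37 with NTX301 and 2.85, 2.80 and 2.75 with DMSO. The ratio of FASN to ACLY was 0.319, 0.334 and 0.356 with NTX301 and 1.41, 1.38 and 1.5 with DMSO, so the order of these genes was turned round. The ratio of FASN to ACSS2 was 2.20, 2.45 and 2.67 with NTX301 and 5.17, 4.93 and 5.09 with DMSO. On the log2 scale the ratios differed by -1.09, -2.09 and -1.06 in TPM, and none depends on the scaling between libraries. The groups did not overlap in any of the 3 ratios, and each exact permutation test gave a two-sided p of 0.10, the smallest that 3 against 3 allows (0.10 after adjustment over the 3).

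**Figure D3:**
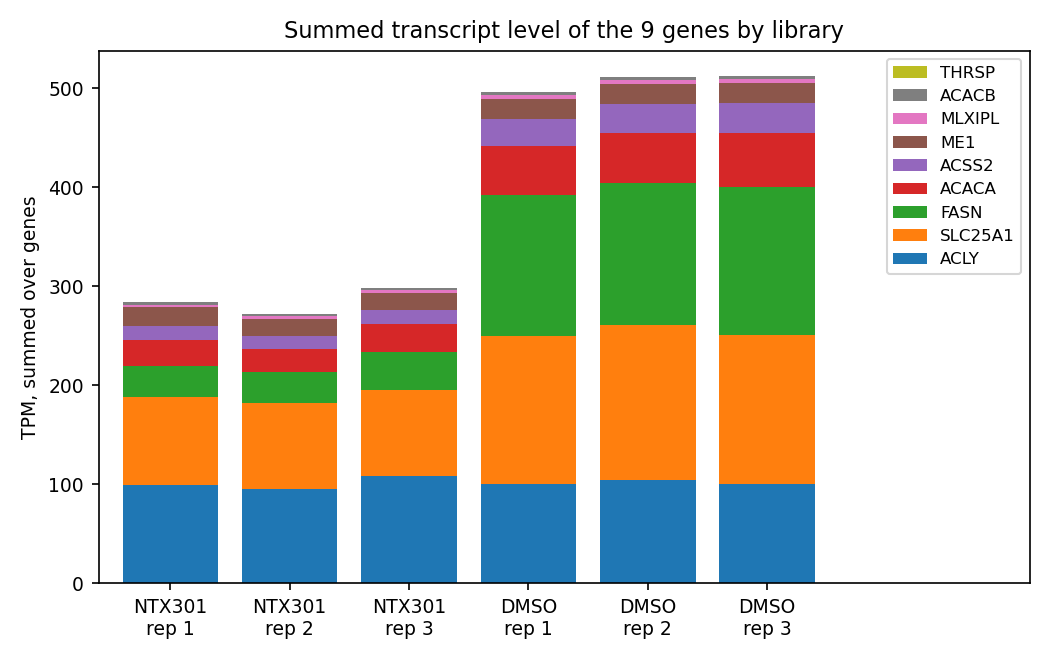
Stacked level in TPM of the 9 genes in each library, starting at 0. The sum is 284, 272 and 298 TPM in NTX301 libraries and 496, 512 and 512 TPM in DMSO libraries, and the FASN segment shrinks while the ACLY segment keeps its height.

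Together the 9 genes took 284, 272 and 298 TPM with NTX301 and 496, 512 and 512 TPM with DMSO. FASN was 11.2%, 11.6% and 12.8% of that sum with NTX301 and 28.6%, 28% and 29.3% with DMSO. ACLY was 35.1%, 34.9% and 36.1% with NTX301 and 20.2%, 20.3% and 19.5% with DMSO, while the share of SLC25A1 overlapped between groups at 29.4% to 31.8% and 29.4% to 30.6%. By level, the order with NTX301 was ACLY, SLC25A1, FASN, ACACA, ME1, ACSS2, MLXIPL, ACACB and THRSP. With DMSO it was SLC25A1, FASN, ACLY, ACACA, ACSS2, ME1, MLXIPL, ACACB and THRSP. Each order was the same in all 3 libraries of its group, and no neighbours overlapped in range, although SLC25A1 and FASN came close with DMSO (lowest 150 TPM and highest 149.8 TPM).

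ME1, the cytosolic malic enzyme that yields NADPH as it makes pyruvate from malate (ENSG00000065833.9, chromosome 6, 83210389 to 83431071), had 18.4, 17.2 and 16.9 TPM with NTX301 and 20.2, 20.4 and 20.3 TPM with DMSO. The groups were close but did not overlap, and ME1 fell by 0.43 ± 0.06 on the log2 scale (1.34-fold lower, edgeR adjusted p = 2.6e-05). It was past the threshold under all 15 alternatives, at -0.48 to -0.21.

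MLXIPL, which encodes ChREBP, the carbohydrate-response factor that drives lipogenic genes in liver (ENSG00000009950.16, chromosome 7, 73593194 to 73624543), had 2.95, 3.42 and 3.26 TPM with NTX301 and 3.86, 4.02 and 4.49 TPM with DMSO. It rested on 124 to 148 counts per library with NTX301 and 176 to 186 with DMSO, and fell by 0.57 ± 0.10 on the log2 scale (1.48-fold lower, edgeR adjusted p = 4.1e-04). THRSP, a thyroid hormone-responsive lipogenic gene of liver and fat (chromosome 11, 78063861 to 78068351), had 0, 1 and 2 counts with NTX301 and 1, 0 and 1 with DMSO. It was not tested and no fold is given, since 3 counts over a group was taken as the floor (0.0394 CPM with NTX301 and 0.0439 CPM with DMSO, for counting error only). It lies inside NDUFC2-KCTD14 on the other strand, so even these counts are uncertain.

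**Figure D4:**
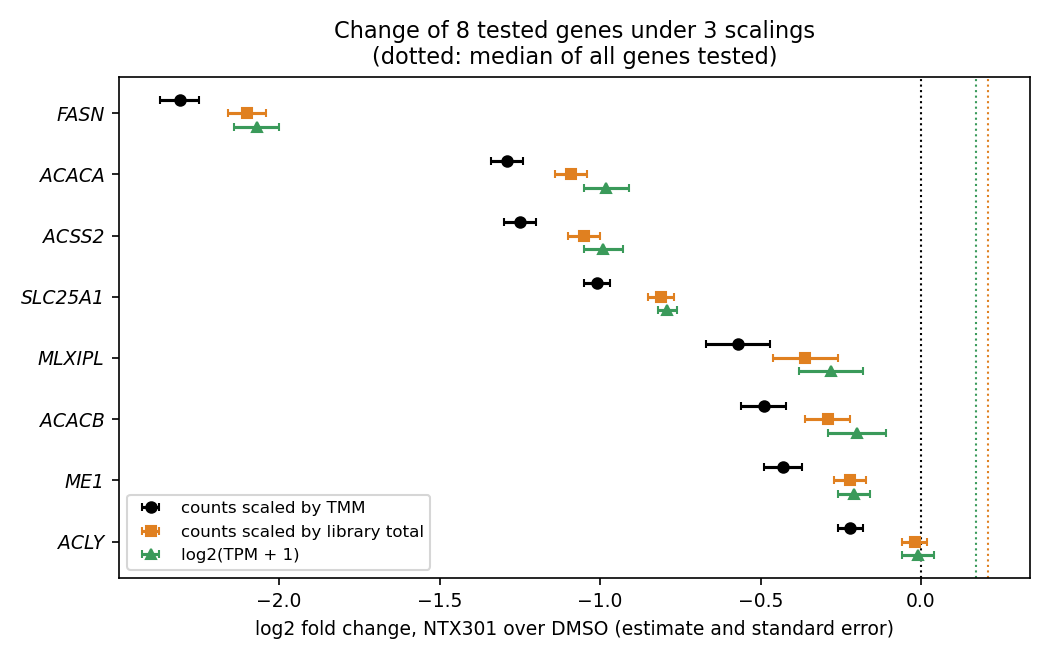
Log2 fold change (NTX301 over DMSO, estimate and standard error) of the 8 tested genes from TMM-scaled counts, from counts scaled by library totals and on log2(TPM + 1). Dotted lines mark the median of all genes under each scaling (0.00, 0.21 and 0.17); FASN stays lowest at -2.31 to -2.07 and ACLY lies near 0 without TMM.

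Within a group the genes did not all deviate in the same direction. The coefficient of variation of CPM was 1.84% to 8.26% with NTX301 and 0.866% to 5.67% with DMSO over the 8 tested genes. It was highest with NTX301 for FASN, whose replicate 3 lay 0.13 from the group mean on the log2 scale and replicates 1 and 2 lay at -0.07 and -0.06. ACACA, ACACB and ACLY were also highest in NTX301 replicate 3, by 0.08, 0.03 and 0.05, whereas ME1 and SLC25A1 were lowest there (-0.10 and -0.05). With DMSO, replicate 3 was the highest for MLXIPL (0.09), ACACB (0.04), FASN and ACACA (0.01 each). It was the lowest for ACLY, ME1 and SLC25A1.

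Among the genes whose pattern over the 6 libraries was closest to that of FASN were SREBF1, PLA2R1, KCNQ1 and BMPR1B. Likeness was the root mean square difference of centred log2 CPM among 10493 other genes averaging at least 10 CPM, and was 0.084 for SREBF1, 0.085 for PLA2R1, 0.093 for KCNQ1 and 0.094 for BMPR1B, against a median of 1.13. SREBF1, which encodes the sterol-regulated activator of lipogenic genes, had 45.2, 45.0 and 48.2 TPM with NTX301 and 185, 186 and 182 TPM with DMSO. BMPR1B, a receptor for bone morphogenetic proteins, averaged 4.34 ± 0.0809 CPM with NTX301 and 20.3 ± 1.7 CPM with DMSO (SD, n = 3 each). The genes closest to ACACA were TNS3 (0.021), EPB41 (0.025) and HIPK2 (0.033), against a median of 0.62. The measure is dominated by the size of the difference between groups, so genes with a like fall score as alike and lie far below the median. KCNQ1 averaged 3.71 CPM with NTX301 and 17.8 CPM with DMSO. It and BMPR1B met the minimum of 10 CPM only through the DMSO libraries.

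Of 13 tested SREBP and LXR regulators of lipogenesis, 12 fell and 0 rose, with a median log2 fold change of -1.02, against 35.1% falling and a median of 0.00 over all genes tested. SREBF1 fell by 2.21 ± 0.04, INSIG1, which holds SREBP in the endoplasmic reticulum, by 1.84 ± 0.05, and SREBF2, the factor for cholesterol genes, by 1.69 ± 0.04 on the log2 scale. The gene that did not pass was MBTPS2, a protease that releases SREBP, named after its values were seen, at 44.2 CPM with NTX301 and 42.7 CPM with DMSO.

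Partners and targets of the carbohydrate-response factors went both ways, with 5 of 10 tested genes up and 4 down (median 0.09), against 35.4% up and 35.1% down over all genes. The 4 falls were 1 with library totals and 2 on log2(TPM + 1). ARRDC4, an arrestin-like gene induced by glucose through MondoA, averaged 23.6 ± 0.899 CPM with NTX301 and 7.42 ± 0.583 CPM with DMSO, and rose by 1.67 ± 0.08 on the log2 scale (edgeR adjusted p = 3.2e-09). KHK, the fructose kinase, rose by 0.86 ± 0.13, and KLF10, a glucose-responsive repressor, by 0.81 ± 0.04. USF2, an E-box factor that binds lipogenic promoters, fell by 0.49 ± 0.05. MLXIP, which encodes MondoA, fell by 0.25 ± 0.04, and ARRDC2, another arrestin-like gene, by 0.24 ± 0.06, though neither passed when counts were scaled by library totals, and MLXIP had the opposite sign on log2(TPM + 1) (0.02). MLX, the shared dimer partner of ChREBP and MondoA, had 58.0 ± 2.11 CPM with NTX301 and 56.7 ± 3.23 CPM with DMSO (log2 0.03 ± 0.05, edgeR adjusted p = 0.57), and passed as higher with library totals (0.24); without DMSO replicate 3 its value was -0.02.

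Among 16 tested partners and modifiers of the carboxylases and FASN, 12 fell and 1 rose (median -0.33), which is 75% and 6.25%, against 35.1% and 35.4% over all genes. With library totals 7 fell and 4 rose, and on log2(TPM + 1) 6 fell and 5 rose. STK11, the kinase upstream of AMP-activated kinase, which switches carboxylase off, averaged 54.0 ± 1.84 CPM with NTX301 and 137 ± 1.34 CPM with DMSO (log2 -1.34 ± 0.04, edgeR adjusted p = 1.4e-10). HLCS, which attaches biotin to the carboxylases, fell by 0.87 ± 0.06, and MLYCD, which removes malonyl-CoA, by 0.80 ± 0.13. SLC5A6, a carrier that takes up biotin, rose by 0.54 ± 0.05. MID1IP1, a relative of THRSP that promotes polymerisation of ACACA, was lower in TMM-scaled counts (log2 -0.15 ± 0.05) and higher on log2(TPM + 1) (0.16), so its direction rested on the scaling.

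**Figure D5:**
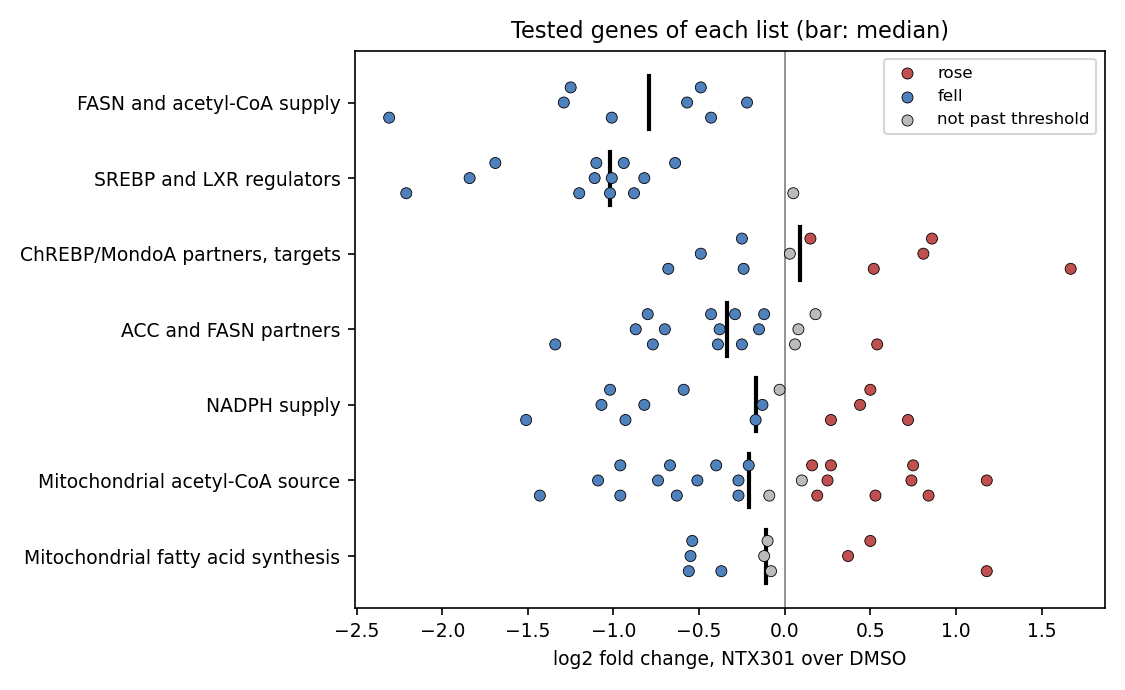
Log2 fold change (NTX301 over DMSO, TMM-scaled counts) of every tested gene in the 9-gene set and in 6 related lists; colour gives the call and the bar the median. The sets at the top lie mostly below 0, with medians of -0.79 and -1.02, while the mitochondrial and NADPH lists spread to both sides.

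In the NADPH list, 8 of 13 tested genes fell and 4 rose (median -0.17), which is 61.5% and 30.8%, against 35.1% and 35.4% over all genes. The falls were largest in the pentose phosphate pathway: TKT averaged 327 ± 5.18 CPM with NTX301 and 933 ± 24.5 CPM with DMSO (log2 -1.51 ± 0.04, edgeR adjusted p = 6.2e-11), and TALDO1 and PGLS fell by 1.07 ± 0.05 and 1.02 ± 0.04. MTHFD1, a folate enzyme, rose by 0.72 ± 0.04, the mitochondrial isocitrate dehydrogenase IDH2 by 0.50 ± 0.06 and the mitochondrial malic enzyme ME2 by 0.44 ± 0.09.

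Upstream, in the mitochondrial source of acetyl-CoA and citrate, 12 of 23 tested genes fell and 9 rose (median -0.21), which is 52.2% and 39.1%, against 35.1% and 35.4% over all genes. PDP1, a phosphatase that activates pyruvate dehydrogenase, averaged 92.4 ± 2.64 CPM with NTX301 and 40.9 ± 1.14 CPM with DMSO (log2 1.18 ± 0.04, edgeR adjusted p = 5.8e-10), and PDHX, a structural subunit of that complex, rose by 0.84 ± 0.04. PDK3 and PDK1, kinases that inactivate it, fell by 1.09 ± 0.07 and 0.96 ± 0.08, although PDK3 did not pass on log2(TPM + 1) (-0.25, limma adjusted p = 0.083). Genes of the same complex did not share a direction: the kinase PDK4 rose by 0.74 ± 0.09 and the subunit PDHB fell by 0.40 ± 0.05, both named after their values were seen. SLC25A10, the dicarboxylate carrier, fell by 1.43 ± 0.07, and ACSS1, the mitochondrial counterpart of ACSS2, rose by 0.75 ± 0.06. The separate mitochondrial fatty acid synthesis pathway, which feeds lipoic acid rather than membranes, had 4 of 10 tested genes down and 3 up (median -0.11), near the shares of 35.1% and 35.4% over all genes. In it, LIAS, the lipoic acid synthase, rose by 1.18 ± 0.09, LIPT1, a lipoyl transferase, by 0.50 ± 0.11 and the acyl carrier protein NDUFAB1 by 0.37 ± 0.06. MECR, HSD17B8 and ACSF3, enzymes of the pathway, fell by 0.56 ± 0.06, 0.55 ± 0.10 and 0.54 ± 0.05.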

How the data were processed

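The authors deposited 1 gene table per library, in the layout that RSEM writes per the file headers. Expected counts, as deposited, estimate the reads of each gene without normalization. TPM, also deposited, is corrected for gene length and sums over a library to a fixed total. In that layout the deposited length is a mean over a gene's transcripts, weighted by abundance. No source used here gives tool versions, genome build, annotation or strand setting. The 47 pseudoautosomal Y entries were added to their X copies, and symbols were matched by stable identifier for 62639 of 62656 genes. Positions are from GENCODE 29 (GRCh38).

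After rounding to whole numbers, the expected counts went into edgeR 4.0.16 (R 4.3.3): filterByExpr left 19029 genes, TMM factors were 1.0679 to 1.0834 with NTX301 and 0.9206 to 0.939 with DMSO, and the quasi-likelihood model (glmQLFit, glmQLFTest) held 1 term, treatment, over the 6 libraries. CPM uses the library total times its TMM factor. Alternatives used DESeq2 1.42.0, limma 3.58.1 (voom and log2 TPM), other scalings and filters, a replicate block and each library left out. The scripts were tested on simulated data in which most genes did not change, whereas 70.5% of genes tested were called here. That test therefore does not bear on the choice of scaling. No library repeated another: chi-square over degrees of freedom was 2.373 to 6.567 for pairs of the same group.

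The members, the 6 related lists, the 7 marker lists and the tests were chosen with earlier results of these data known. All 9 members are named. From each related list the text names up to 3 rises and 3 falls, the largest among called genes averaging at least 1 CPM, plus SREBF1, MID1IP1 and MLX whatever their values. Some genes that these rules name are not reported here.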

Additional observations from a re-analysis of the deposited data

How the results depend on the processing

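The fall of all 8 tested genes held with DESeq2, limma-voom, DESeq2's size factors in edgeR, both filters, the replicate block and without each library (8 in each). It was 7 with library totals (without ACLY) and 6 on log2(TPM + 1) and log2(TPM + 0.1) (without ACLY and ACACB, adjusted p = 0.84 and 0.072 to 0.096 by limma). The number down by 2-fold or more was 4, and 3 with library totals, with a minimum of 1 CPM in 3 libraries, on log2(TPM + 0.1) and without NTX301 replicate 3, and 1 on log2(TPM + 1). Leaving out a library, a check chosen after seeing the data for these values, gave CPM log2 ratio differences of -1.04 to -0.97 for FASN to ACACA, -2.13 to -2.05 to ACLY and -1.12 to -0.99 to ACSS2, and an ACACA length difference of -550 to -423 bases.

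Of the partners and modifiers of the carboxylases and FASN, the number that rose (1) was 4 with library totals, 5 on either log2 TPM scale, 2 without a filter, with the 1 CPM filter or with the replicate block, and 1 to 4 with a library left out (4 without DMSO replicate 1, 2 without NTX301 replicate 1, DMSO replicate 2 or DMSO replicate 3); the number that fell (12) was 7 with library totals and 6 on either TPM scale. Of the carbohydrate-response genes, 4 fell, against 1 with library totals and 2 on either TPM scale. Of the SREBP and LXR genes, 0 rose, against 1 with library totals and on either TPM scale. Over all genes, 6677 fell, against 4318 on log2(TPM + 1) and 4297 on log2(TPM + 0.1). The sign turned for MID1IP1 (0.05 with library totals, 0.16 on both TPM scales), MLXIP (0.02 on both TPM scales) and MLX (-0.02 without DMSO replicate 3). With a library left out, MLX ranged over -0.02 to 0.06, against 0.03 with all. Library totals and the TPM scales move the median of all genes by 0.17 to 0.22; otherwise the cause was not tested.

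Same-numbered libraries did not pair: their deviations from the group means correlated at 0.08, -0.03 and 0.04, and not every library correlated best with its own number. With the replicate block, 6837 genes rose and 6749 fell, against 6744 and 6677 without it, and the log2 fold change of FASN was -2.31 in both. THRSP is limited by depth, with 0 to 2 counts a library.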
